A study of Homo sapiens with 8 samples.

Results

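NF-kappaB is a family of transcription factors that act as pairs of subunits. In resting cells IkappaB proteins hold the pairs in the cytoplasm, and a kinase complex frees them after signals from receptors of the TNF, interleukin 1 and Toll-like families. The freed factor induces inflammatory genes and also its own inhibitors, so the response limits itself, and in senescent cells it is known for driving part of the secreted program. The genes described here are 4 subunits (NFKB1, NFKB2, RELA and RELB) and 6 feedback targets (NFKBIA, NFKBIZ, TNFAIP3, TRAF1, BIRC3 and SOD2). They were taken by symbol, as a family, and all 10 were found, 1 row each, among the 13841 rows of the count table.

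RNA came from A549, an established lung adenocarcinoma line used to stand for alveolar epithelium. Every library was from cells stretched cyclically (15% elongation, 15 cycles per min) for 24 h, kept for 6 more days and then separated by β-galactosidase activity, a lysosomal activity raised in senescent cells. Libraries 1, 3, 4 and 5 held cells positive for the activity (labelled senescent) and libraries 2, 6, 7 and 8 held negative cells, so stretch is shared by both groups and its effect is not part of the comparison. Nothing in the labels says that libraries came from separate cultures, so the spread between them may be technical.

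The libraries held 5634961 to 7990839 counts, positive 1 being the lowest and negative 2 the highest. These same libraries stood apart: the median correlation with the other libraries over all tested genes was 0.938 for positive 1 and 0.924 for negative 2, against 0.964 to 0.972 for the rest. The summed rows of mitochondrially encoded genes came to 109 CPM (counts scaled to a common library total) in positive 1 and 9.39 to 23.3 CPM elsewhere. All 10 epithelial and A549 markers had a row, and their summed level was 6747 to 8731 CPM in positive libraries, with positive 1 at 7299 CPM, and 8305 to 9498 CPM in negative ones. The part of this partly overlapping difference in the results was not tested. Of 8 leukocyte markers 4 had a row, and their summed level was 74.1 to 79.9 CPM in positive and 52.1 to 73.5 CPM in negative libraries. The leukocyte markers PTPRC and CD3E had no row, and the part of the 4 with a row in the results below was not tested. Fibroblast markers (4 of 6) summed to 9.18 to 13.8 CPM in positive and 6.26 to 10.3 CPM in negative libraries, with COL1A2 and PDGFRB without a row, and only CDH5 of 5 endothelial markers had one.

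NF-kappaB binds a short, nearly symmetric sequence, and the stretches below show where letters of that kind stand before RefSeq start sites of the members. The TNFAIP3 and NFKB2 stretches shown stand before such a start but inside the bounds given further on for these genes. RefSeq promoter windows (GRCh38.p14; 250 bases before to 50 after a start site) existed for 9 of the 10 genes, in 19 windows; RELB had no entry. The 10-base kappaB consensus, searched on both strands, was present in 8 of the 19 windows and in at least 1 window of 6 genes. Over all 35116 windows 7.73% held it, and over all 27305 symbols 9.16% had it in at least 1 window. A match is a description of letters, not evidence of binding. Capitals mark the matching bases in the stretches below, written 5′ to 3′ in the direction of each gene, and stretches over an annotated exon are kept to 30 bases.

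NFKBIZ (chr3:101827740-101827806, plus strand, match starting 223 bases before the start): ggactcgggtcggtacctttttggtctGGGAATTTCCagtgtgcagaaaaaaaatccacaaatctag
NFKBIA (chr14:35404791-35404860, minus strand, 81 bases before): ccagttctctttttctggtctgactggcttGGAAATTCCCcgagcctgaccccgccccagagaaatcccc
BIRC3 (chr11:102317255-102317324, plus strand, 199 bases before): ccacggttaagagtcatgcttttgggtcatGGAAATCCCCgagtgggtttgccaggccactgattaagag
TNFAIP3 (chr6:137867188-137867217, plus strand, first match 67 bases before): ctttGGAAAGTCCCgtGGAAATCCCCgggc
NFKB1 (chr4:102501300-102501329, plus strand, 49 bases before): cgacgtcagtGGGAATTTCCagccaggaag
NFKB2 (chr10:102394461-102394490, plus strand, 107 bases before): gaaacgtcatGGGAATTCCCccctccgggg

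The NFKBIZ and NFKB1 stretches held the same 10 letters, and the NFKB2 match shown reads the same on both strands. TNFAIP3 held a pair of matches 2 bases apart. For NFKB2 and NFKBIZ 1 match each is shown: NFKB2 had 3 more, 78 bases before the same start and 176 and 21 bases before another, and NFKBIZ had 1 more, 239 bases before a second start. No window of RELA, TRAF1 or SOD2 held the consensus, which says only that these letters are not in those windows.

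NFKBIZ, TRAF1, TNFAIP3 and SOD2 had higher mean counts in β-galactosidase positive cells, by 1.59-fold to 2.33-fold. The means of NFKBIA (1.23-fold) and RELB (1.09-fold) were slightly higher. RELA, NFKB1 and BIRC3 had lower means, at 0.74, 0.80 and 0.80 of the negative mean. For BIRC3 this came from negative 2, without which its log2 fold change was 0.07. NFKB2 was high in 1 positive library alone. In edgeR's quasi-likelihood test over 11351 rows, 0 of the 10 members passed an adjusted p of 0.05, and neither did any other row (0%). At an unadjusted p under 0.05 there were 4 members, all higher, beside 7.52% of all tested rows higher, 6.85% lower and 14.4% in either direction. Estimates were above 0 for 7 of 10 members, with a median log2 fold change of 0.48, beside 48.1% of all rows and a median of -0.02. Without positive 1 each of these 7 estimates was lower, with NFKB2 at -0.48, NFKBIA at 0.07 and RELB at 0.03. The members' median of 0.48 thus rests partly on positive 1. DESeq2's Wald test called 0 members and 0.477% of the rows it could test. No member had groups free of overlap, beside 5% of all rows with every positive library higher and 4.14% with every one lower. Leaving out positive 1 gave 3 members at an unadjusted p under 0.05 beside 10.4% of all rows. Leaving out negative 2 as well gave 2, NFKBIZ and SOD2, beside 10% of all rows, so the share fell for all rows as well as for the members. RELA also passed this unadjusted threshold without positive 5 or without negative 6, in the lower direction. In bulk RNA a change in the level per cell and a change in the share of cells that express a gene cannot be told apart.

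**Figure D1:**
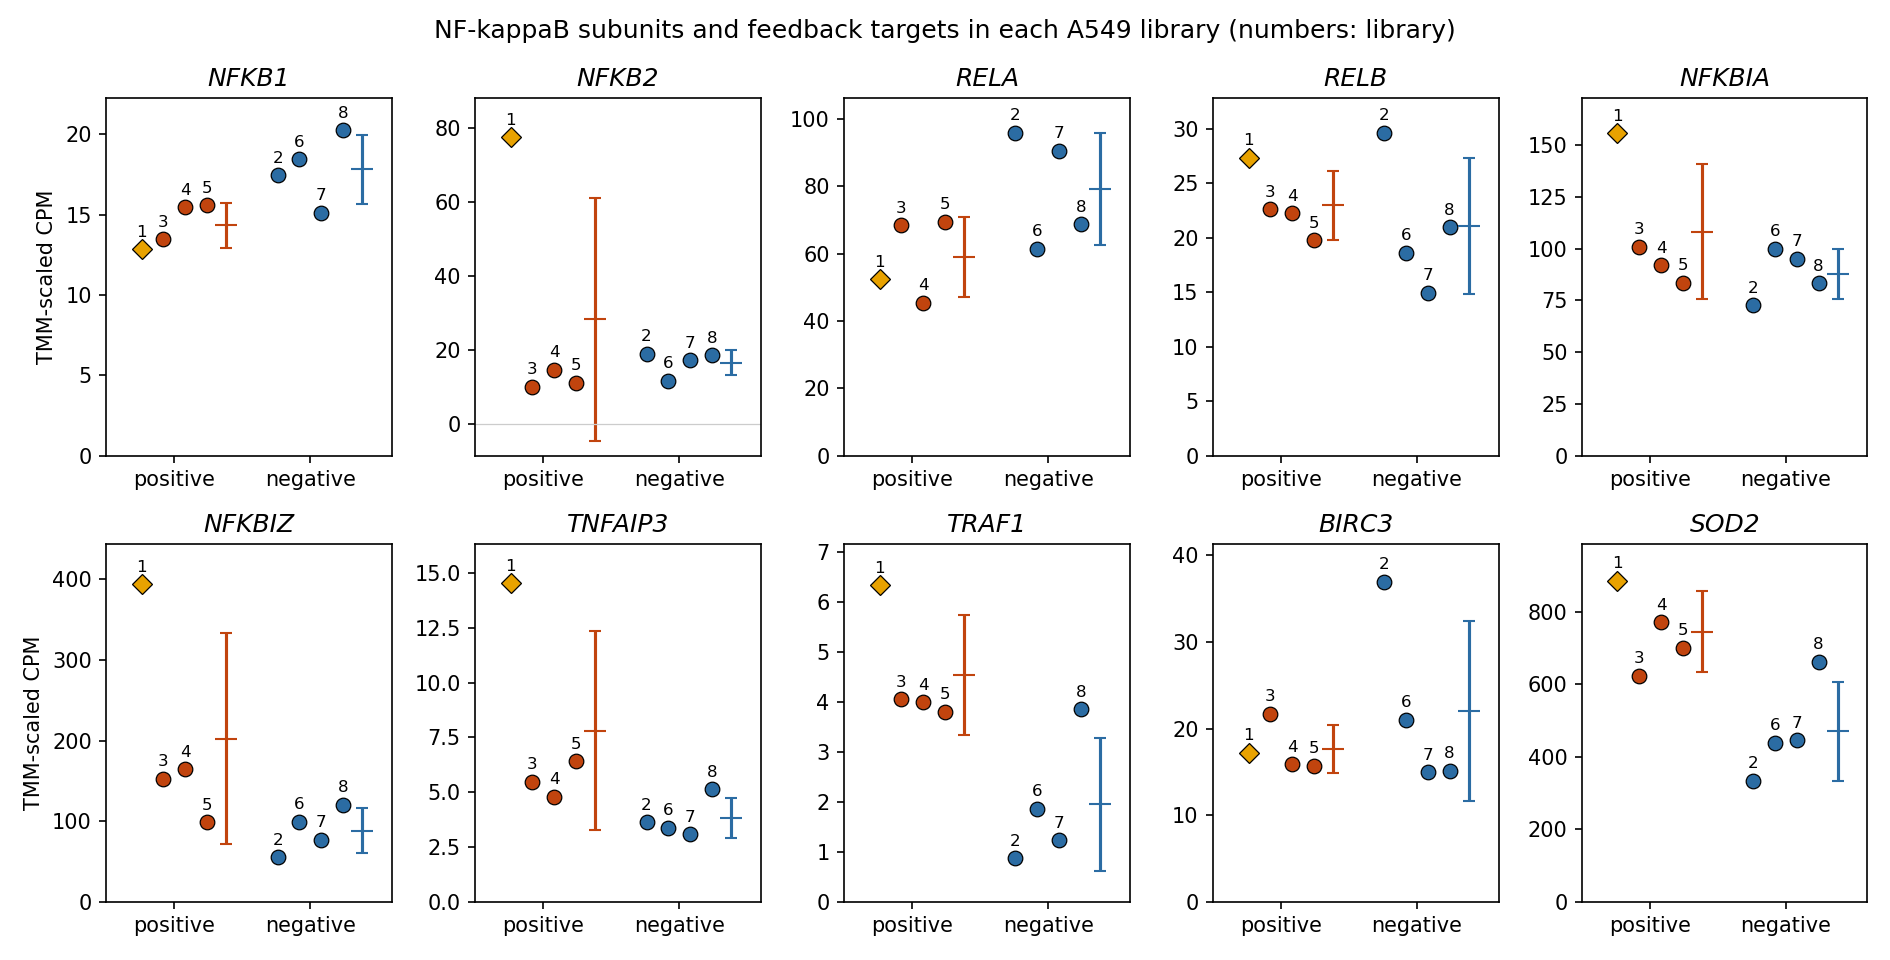
TMM-scaled CPM (y axis) of each member in the 4 positive and 4 negative libraries (x axis); the y axis holds 0, numbers are library labels, the diamond is positive 1, and bars give the group mean ± SD (n = 4). Positive 1 is the highest library for NFKB2, NFKBIA, NFKBIZ, TNFAIP3, TRAF1 and SOD2, and negative 8 is the highest negative library for NFKBIZ, TNFAIP3, TRAF1 and SOD2.

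Among the inhibitors, NFKBIZ encodes IkappaB-zeta, a nuclear protein that binds NF-kappaB on selected target genes and is itself induced by it. NFKBIZ was at 394 CPM in positive 1 and at 153, 164 and 99.1 CPM in positive 3, 4 and 5. In negative 2, 6, 7 and 8 it was at 55.4, 99.7, 77.0 and 120 CPM. Positive 1, 3 and 4 lay above every negative library, and positive 5 lay below negative 8 and negative 6. The means were 203 ± 131 CPM in positive and 88.1 ± 28.0 CPM in negative cells (SD, n = 4 each), and the log2 fold change was 1.20 ± 0.38 (SE; 95% interval 0.38 to 2.02; edgeR adjusted p = 0.309). Without positive 1 it was 0.66 (0.07 to 1.24), and without both positive 1 and negative 2 it was 0.50 (0.07 to 0.94). NFKBIZ lies on chromosome 3 at 101827991 to 101861022 (GRCh38, GENCODE 29) and is protein-coding.

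NFKBIA encodes IkappaB-alpha, the inhibitor that is degraded to free NF-kappaB and resynthesised as its best known feedback gene. It was at 156 CPM in positive 1, and at 101, 92.1 and 83.6 CPM in positive 3, 4 and 5. The negative libraries 2, 6, 7 and 8 stood at 72.7, 99.9, 95.3 and 83.3 CPM, so that without positive 1 the groups covered nearly the same range. Positive minus negative cells gave a log2 fold change of 0.30 (-0.16 to 0.76; edgeR adjusted p = 0.498), and 0.07 (-0.29 to 0.43) without positive 1. NFKBIA lies on chromosome 14 at 35401511 to 35404749.

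TNFAIP3 encodes A20, a ubiquitin-editing enzyme that shuts off signalling to the kinase complex. TNFAIP3 was at 14.5 CPM in positive 1 and at 5.49, 4.80 and 6.42 CPM in positive 3, 4 and 5, against 3.64, 3.38, 3.09 and 5.13 CPM in negative 2, 6, 7 and 8. Only negative 8 reached into the range of the positive libraries, above positive 4. The means were 7.81 ± 4.52 and 3.81 ± 0.91 CPM (SD, n = 4 each), and the log2 fold change was 1.02 ± 0.37 (SE; 0.20 to 1.83; edgeR adjusted p = 0.312). Without positive 1 it was 0.54 (-0.08 to 1.17), with an interval that spans 0. The counts behind these values were low, at 36 to 87 per positive and 20 to 36 per negative library, and counting alone gives a spread of 15.9% at the mean count of 39.4. TNFAIP3 lies on chromosome 6 at 137867188 to 137883312, where an antisense transcript, AL357060.1, overlaps it.

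TRAF1 encodes an adaptor of TNF receptor signalling that is induced by NF-kappaB. It was at 6.34, 4.05, 4.0 and 3.80 CPM in positive 1, 3, 4 and 5. In negative 2, 6 and 7 it was at 0.87, 1.86 and 1.24 CPM, and in negative 8 at 3.85 CPM, just above positive 5. The means were 4.55 ± 1.20 and 1.95 ± 1.33 CPM (SD, n = 4 each), with a log2 fold change of 1.20 ± 0.43 (SE; 0.27 to 2.12; edgeR adjusted p = 0.312). Positive 3, 4 and 5 agreed closely, at 3.95 ± 0.13 CPM, and the difference without positive 1 was 1.0 (0.02 to 1.98). It was 0.77 (-0.06 to 1.59) without both positive 1 and negative 2, and 1.80 without negative 8. TRAF1 had the fewest counts of the members, with 29 to 38 in each positive library and 6, 11, 8 and 27 in negative 2, 6, 7 and 8. An exact Poisson interval, which covers counting error only, runs from 2.20 to 13.1 for the 6 counts of negative 2 and from 17.8 to 39.3 for the 27 of negative 8, so negative 8 differed from negative 2 by more than counting error. TRAF1 lies on chromosome 9 at 120902393 to 120929173.

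BIRC3 encodes the ubiquitin ligase cIAP2, which protects cells from TNF-induced death and restrains the alternative pathway. BIRC3 was at 17.2, 21.7, 15.9 and 15.7 CPM in positive 1, 3, 4 and 5, and at 36.9, 21.0, 15.0 and 15.1 CPM in negative 2, 6, 7 and 8. Negative 2 was the highest of all libraries, and the other 7 covered the same range in both groups. For BIRC3 the log2 fold change was -0.32 (-0.95 to 0.31; edgeR adjusted p = 0.593), and 0.07 without negative 2. Positive 1, which was the highest library for the other 5 feedback targets, was near the middle for BIRC3. BIRC3 lies on chromosome 11 at 102317450 to 102339403.

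SOD2 encodes the manganese superoxide dismutase of mitochondria, an antioxidant enzyme that is a classical NF-kappaB target. SOD2 was at 885, 623, 771 and 700 CPM in positive 1, 3, 4 and 5. Negative 2, 6 and 7 were at 334, 438 and 445 CPM and negative 8 at 662 CPM, which is above positive 3 and below the other positive libraries. The means were 745 ± 111 and 470 ± 138 CPM (SD, n = 4 each), and the log2 fold change was 0.67 ± 0.22 (SE; 0.20 to 1.13; edgeR adjusted p = 0.309). SOD2 had the most counts of the members, with a mean of 4202 per library. It moved least of the 4 when libraries were left out, at 0.57 (0.09 to 1.05) without positive 1 and 0.46 (0.09 to 0.82) without both positive 1 and negative 2, and it was 0.90 without negative 8. SOD2 lies on chromosome 6 at 159669057 to 159745186, with a second gene model of the same symbol and WTAP on the other strand overlapping it. The sources used here do not say whether counting used strand. WTAP was at 15.3 ± 2.75 CPM in positive and 21.2 ± 4.11 CPM in negative cells (SD, n = 4 each).

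**Figure D2:**
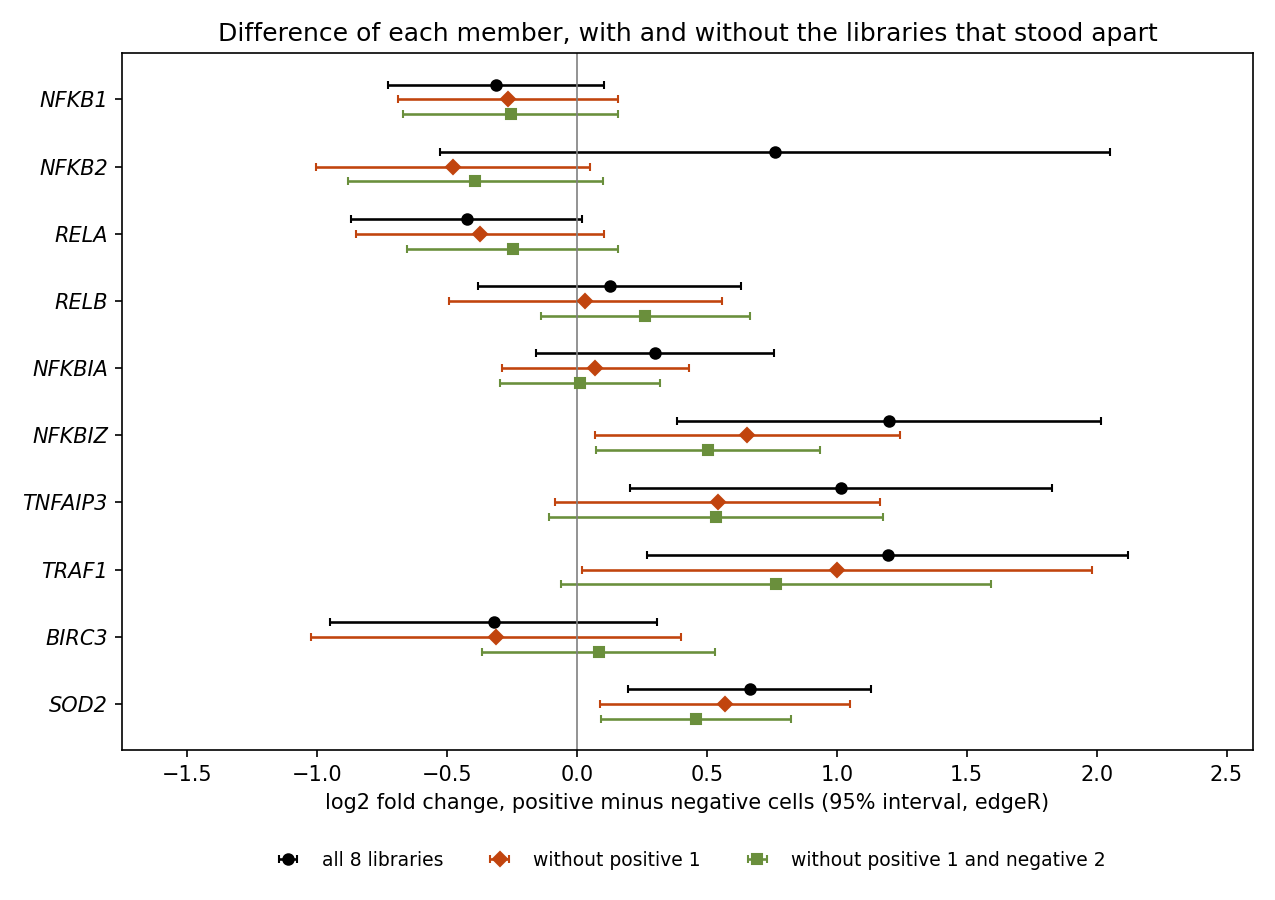
Log2 fold change of each member, positive minus negative cells (x axis), with its 95% interval from edgeR, over all 8 libraries (circles), then leaving out positive 1 (diamonds) or positive 1 with negative 2 (squares). NFKB2 goes from 0.76 to -0.48 without positive 1, whereas SOD2 and NFKBIZ keep intervals above 0 in all 3 fits.

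Of the subunits, NFKB2 encodes p100, the precursor of p52 in the alternative pathway, and is itself an NF-kappaB target. NFKB2 was at 77.6 CPM (465 counts) in positive 1 and at 9.93, 14.7 and 11.1 CPM in positive 3, 4 and 5. In negative 2, 6, 7 and 8 it was at 18.9, 11.7, 17.1 and 18.5 CPM. Positive 1 thus stood 6.51 times above the mean of the other positive libraries, while those lay below negative 2, 7 and 8. Over all 8 libraries the log2 fold change was 0.76 with an interval of -0.53 to 2.05 (edgeR adjusted p = 0.531), and -0.48 (-1.0 to 0.05) without positive 1. NFKB2 lies on chromosome 10 at 102394110 to 102402529.

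RELB encodes the partner of p52. RELB was at 27.4, 22.6, 22.2 and 19.8 CPM in positive 1, 3, 4 and 5 and at 29.7, 18.6, 15.0 and 21.0 CPM in negative 2, 6, 7 and 8, with the positive libraries inside the negative range. The log2 fold change was 0.13 (-0.38 to 0.63; edgeR adjusted p = 0.805), -0.01 without negative 7 and 0.35 without negative 2. In positive 1 the high NFKB2 was accompanied by a RELB level only 1.27 times the mean of the other positive libraries. RELB lies on chromosome 19 at 45001430 to 45038198.

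RELA encodes p65, the main activating subunit. RELA was at 52.4, 68.5, 45.4 and 69.5 CPM in positive 1, 3, 4 and 5 and at 95.8, 61.4, 90.6 and 68.7 CPM in negative 2, 6, 7 and 8. Negative 2 and 7 lay above every positive library and negative 6 and 8 within their range. The means were 58.9 ± 11.9 and 79.2 ± 16.7 CPM (SD, n = 4 each), with a log2 fold change of -0.43 ± 0.20 (SE; -0.87 to 0.02; edgeR adjusted p = 0.359). Leaving out both positive 1 and negative 2 gave -0.25 (-0.65 to 0.16), whereas leaving out negative 6 gave -0.53 (-1.0 to -0.07) and leaving out positive 5 gave -0.51 (-1.01 to -0.02), with intervals below 0. RELA lies on chromosome 11 at 65653596 to 65663094, where a transcript of the other strand, AP001362.2, overlaps it.

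NFKB1 encodes p105, the precursor of p50. NFKB1 was at 12.8, 13.5, 15.5 and 15.6 CPM in positive 1, 3, 4 and 5 and at 17.4, 18.4, 15.1 and 20.2 CPM in negative 2, 6, 7 and 8. Only negative 7 reached into the positive range. The log2 fold change was -0.31 ± 0.19 (SE; -0.73 to 0.10; edgeR adjusted p = 0.439) and stayed between -0.39 and -0.22 with each library left out in turn. Positive 1, the highest library for NFKB2, was the lowest of all for NFKB1. NFKB1 lies on chromosome 4 at 102501329 to 102617302.

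A difference between members within 1 library hardly depends on how libraries are scaled. An amplicon count does not give a level that can be compared between genes, so only the change of such a difference across libraries is read. The mean log2-CPM of the 6 feedback targets minus that of the 4 subunits was 0.95, 0.95, 0.85 and 0.72 in positive 1, 3, 4 and 5. It was -0.35, 0.41, 0.03 and 0.41 in negative 2, 6, 7 and 8, so every positive library lay above every negative one. The group means were 0.87 ± 0.11 and 0.13 ± 0.36 (SD, n = 4 each), a difference of 0.74. Leaving out positive 1 gave 0.71, and leaving out negative 2 as well gave 0.56. Requiring at least 50 counts removed the feedback targets TNFAIP3 and TRAF1 and gave 0.54, so part of the difference rests on these low-count genes. Values of single libraries were not computed without them. Positive 1 was not set apart from the other positive libraries by this measure, since its subunit mean was also the highest, at 5.13 against 4.44 to 4.98 in the others. That mean was high mainly through NFKB2, at a log2-CPM of 6.28 in positive 1 and 3.35 to 4.26 in the others. RELB was at 4.79 in positive 1, while NFKB1, at 3.72, was the lowest of all libraries and RELA, at 5.72, was above positive 4 only. So 1 gene hides how far positive 1 stands apart, and the closeness of 0.74 and 0.71 rests partly on that gene. The measure was not computed without NFKB2. No p is given, because the members were chosen with results of these data known. The log2 difference of NFKB2 and NFKB1 was 2.57 in positive 1 and between -0.65 and 0.18 in the other 7 libraries. For RELB and RELA it was -0.93, -1.59, -1.02 and -1.80 in positive 1, 3, 4 and 5. Negative 2, 6, 7 and 8 had values of -1.68, -1.71, -2.57 and -1.70, with overlap through positive 5.

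**Figure D3:**
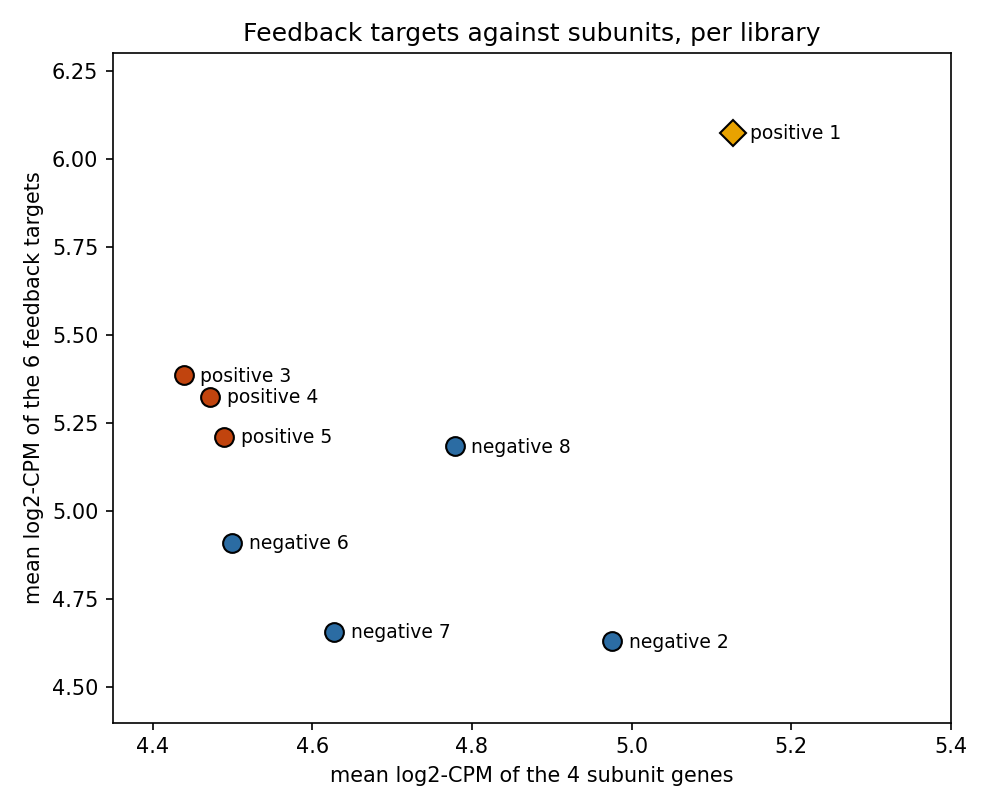
Mean log2-CPM of the 6 feedback targets (y axis) against that of the 4 subunits (x axis) in each library; the axes start above 0, and the diamond is positive 1. At similar subunit means, positive 3, 4 and 5 lie above negative 6 and 7 in feedback targets. Negative 8, at a higher subunit mean of 4.78, is at 5.18 in feedback targets, close to positive 5 at 5.21. Positive 1 is highest on both axes, on the x axis mainly through NFKB2.

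Related genes were read from 7 lists, and in each 0 rows passed the adjusted threshold in edgeR's test. Beside every list's counts stand the shares over all rows, 48.1% above 0, 7.52% higher and 6.85% lower at an unadjusted p under 0.05. Groups did not overlap in 5% of all rows with positive libraries higher and in 4.14% with them lower. Genes are named below for a small p, which favours such separation. Beside the genes said below not to overlap, RBCK1 and ZC3H12A (higher) and BTRC, NFKBIB and TXNRD2 (lower) did not overlap either. In the core pathway, which carries the signal from receptors to the IkappaB kinases and the ubiquitin ligase that marks IkappaB, 30 of 36 genes were tested. Their median log2 fold change was -0.02, beside -0.02 over all rows, and 2 were higher and 2 lower at an unadjusted p under 0.05. These 4 became 1 without positive 5 and 2 without positive 1, negative 2 or negative 6. IRAK4, a kinase of interleukin 1 and Toll-like receptor signalling, was at 21.4 CPM in positive and 11.4 CPM in negative cells (log2 fold change 0.89, and 0.57 without positive 1). IKBKB, the IkappaB kinase of the classical pathway, was at 54.8 and 40.6 CPM (0.43), and CHUK, the other kinase of that complex, at 32.1 and 41.9 CPM (-0.38, and -0.11 without negative 2). FBXW11, a subunit of the ligase that marks IkappaB for degradation, was at 16.0 and 24.8 CPM (-0.62), and BTRC, its close relative, was the other lower gene, at 12 and 16.4 CPM. Of the 8 tested genes of the alternative pathway 0 reached an unadjusted p under 0.05, and their median was -0.23, with 1 gene at that threshold without positive 4 or negative 2. BIRC2, which encodes the ligase cIAP1, was at 38.7 and 48.1 CPM (-0.31) and the ligand gene TNFSF12 at 18.5 and 24.4 CPM (-0.39).

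Of 14 tested receptor genes 11 had a log2 fold change above 0, with a median of 0.20, and 1 was higher and 0 lower at an unadjusted p under 0.05. The number was 2 without positive 3, positive 5 or negative 2 and 3 without negative 8. TLR3, the Toll-like receptor for double-stranded RNA, was at 51.7, 26.9, 22.3 and 21.4 CPM in positive 1, 3, 4 and 5 and at 15.3, 15.7, 14.7 and 18.0 CPM in negative 2, 6, 7 and 8. Its groups did not overlap, and its log2 fold change was 0.94 ± 0.28 (SE; edgeR adjusted p = 0.309) and 0.56 without positive 1. TNFRSF10B, a death receptor for TRAIL, had a log2 fold change of 0.68 (0.34 without positive 1, 1.03 without negative 8). That of IL1R1, the interleukin 1 receptor, was 0.56 (0.34 without negative 2). TNFRSF1A, the main TNF receptor gene and named after its value was seen, was at 131 CPM in both groups.

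Of the 12 ligand genes 5 were tested, with a median of 0.34. TNF and IL1A had no row and IL1B was too low to be tested. TNFSF14, which encodes the ligand LIGHT, was at 5.01, 3.01, 3.60 and 2.36 CPM in positive 1, 3, 4 and 5, from 18 to 30 counts. In negative 2, 6, 7 and 8 it was at 0, 0.68, 1.39 and 1.28 CPM, from 0 to 9 counts, and the groups did not overlap. Its difference was 2.03 ± 0.57 on the log2 scale (SE; edgeR adjusted p = 0.309), 1.62 without negative 2 and 1.81 without positive 1, on a low-count gene. IL18, an inflammasome cytokine, was at 147 and 191 CPM (-0.38, and -0.17 without positive 1).

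Of 25 tested negative regulators beside the members, 5 were higher and 2 lower at an unadjusted p under 0.05, with a median of -0.07. In place of these 7 there were 2 without positive 1, 3 without negative 2 and 4 without positive 4 or positive 5. ATF3, a stress-induced repressor, was at 73.2 CPM in positive 1 and at 8.66 to 14.9 CPM in the other positive libraries, against 5.96 to 9.70 CPM in the negative ones (log2 fold change 1.69, and 0.57 without positive 1). IRAK3, an inactive relative of the IRAK kinases that damps signalling, was at 3.97 and 1.81 CPM (1.10, and 0.77 without positive 1). TOLLIP, an adaptor that restrains Toll-like receptor signalling, was lower, at 4.67 and 8.98 CPM (-0.94).

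Of the other transcriptional targets, 36 of 46 genes had a row and 31 rows were tested, 3 of them rows of IER3, 2 of which hold the same values. IL6, ICAM1 and CCL20, common readouts of NF-kappaB activity, had a row but were too low to be tested. Of the 31 rows, 23 had an estimate above 0, the 3 of IER3 included, with a median log2 fold change of 0.17, and 4 were higher and 0 lower at an unadjusted p under 0.05, 2 in all without positive 1, 7 without positive 5 or negative 8 and 7 with library totals as the only scaling. C3, a complement component, was at 16.5, 17.1, 16.4 and 26.6 CPM in positive 1, 3, 4 and 5 and at 6.98, 8.63, 13 and 13 CPM in negative 2, 6, 7 and 8. Its groups did not overlap and positive 1 was not high, and the log2 fold change was 0.88 ± 0.27 (SE; edgeR adjusted p = 0.309), and 0.95 without positive 1. The neutrophil chemokine gene CXCL2 had a log2 fold change of 1.0, and one of 0.33 without positive 1, where it was at 183 CPM. PLAUR, the urokinase receptor gene, was at 0.76, and at 0.42 without positive 1.

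SOD2 was also set beside 10 tested genes for other superoxide dismutases and antioxidant enzymes, 8 of which had a log2 fold change below 0, with a median of -0.15. At an unadjusted p under 0.05, 0 were higher and 2 lower, and there was 1 without positive 3, positive 4, negative 2 or negative 7. CAT, which encodes catalase, was at 36.0 CPM in positive and 55.6 CPM in negative cells without overlap (-0.63; edgeR adjusted p = 0.309), and at -0.46 without negative 2, where it was highest. SOD1, the cytosolic superoxide dismutase, was at 271 and 375 CPM (-0.47; edgeR adjusted p = 0.320), and at -0.61 without positive 1. CCS, the copper chaperone of SOD1, was at 10.2 and 14.6 CPM (-0.51). SOD2 itself was at 745 and 470 CPM, on the other side of 0 from these 3 genes.

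**Figure D4:**
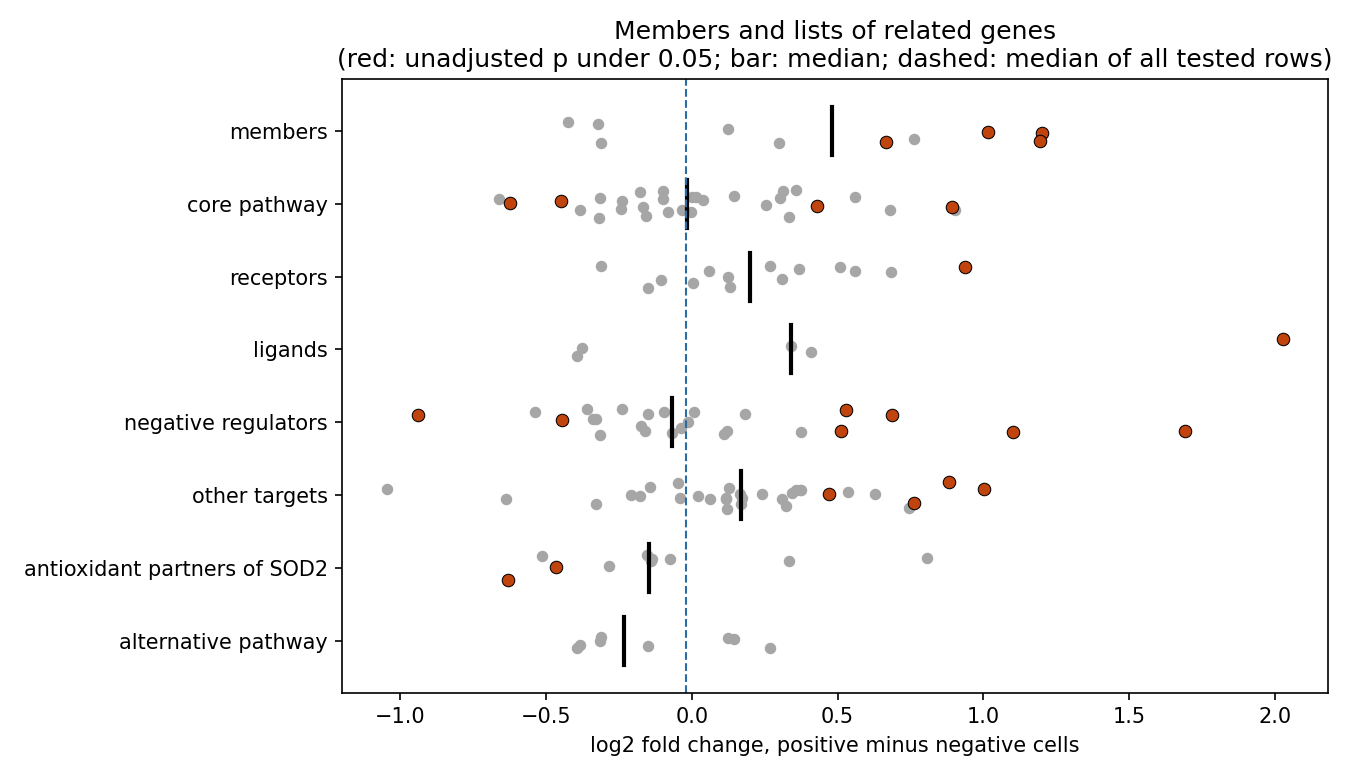
Log2 fold change, positive minus negative cells (x axis), of the 10 members and of each tested row of the 7 lists (1 point a row); red points have an unadjusted p under 0.05 in edgeR's test, bars are list medians and the dashed line is the median of all 11351 rows, -0.02. The members' median is 0.48, which rests partly on positive 1, and that of the core pathway, -0.02, is beside the dashed line. No point passes an adjusted p of 0.05.

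The genes whose pattern over the 8 libraries was most like the mean standardised log2-CPM of the 10 members were ZNF30, TCF4, CIAO1, RWDD3 and VCPKMT, out of 9413 other rows at 5 CPM or more. Spearman's rho was 0.93 for ZNF30 and TCF4 and 0.90 for the other 3, and 0.86 to 0.89 over the 7 libraries without positive 1. These values describe libraries that share depth and processing and carry no p. The members' mean itself was 0.95 in positive 1 and between -0.54 and 0.11 elsewhere. Positive 1 thus stood furthest apart in this mean, but the ranks of the other 7 libraries were also alike, as the rho without positive 1 shows. The log2 fold changes of the 5 genes were small, from 0.10 for VCPKMT to 0.44 for ZNF30, whose edgeR adjusted p was 0.460.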

How the data were processed

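Per the labels' protocols, total RNA was extracted with Trizol and amplified with a targeted human transcriptome panel for Ion Torrent. The deposited table holds 1 estimated count per gene and library; fastp 0.20.1, Salmon 1.9 and GRCh38 are named in the submitters' processing notes. Gene annotation, strand use and row filter: not given in the sources used here. All values were whole, so rounding altered none.

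Rows were kept with filterByExpr (minimum count 10, total 15), leaving 11351 of 13841, and all 10 members passed. Positive cells were compared with negative cells with edgeR 4.0.16 (TMM, robust quasi-likelihood test; R 4.3.3), with Benjamini-Hochberg adjustment over all rows. CPM values are TMM-scaled, except summed marker and mitochondrial levels, which use library totals. Log2-CPM used a prior count of 2. Intervals are 95%. Each library number occurs once and the labels state no pairs, so no pairing was fitted.

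The members, lists and rules were chosen with earlier results of these data known. The rule named every member, the 3 genes of smallest p in each list and the 5 rows of highest Spearman rho with the members' mean. BTRC, TNFRSF1A, WTAP, RBCK1, NFKBIB, ZC3H12A and TXNRD2 were added after their values were seen. Alternatives used DESeq2 1.42.0 and limma 3.58.1, other scalings and filters, and libraries left out.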

Additional observations from a re-analysis of the deposited data

Results flagged for a closer look

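A gap test for a single high or low value in a group of 4 (Dixon's, at its 95% critical value) was applied to 30 genes in both groups, 60 groups in all, of which chance marks about 1 in 20. It marked 9 values. In 7 of them the library was positive 1, which also stood apart over all genes. Among the members these were NFKB2 at 77.6 CPM (next highest 14.7), TNFAIP3 at 14.5 CPM (next 6.42) and TRAF1 at 6.34 CPM (next 4.05). Among the related genes they were IRAK4 at 34.2 CPM, ATF3 at 73.2 CPM and CXCL2 at 183 CPM, all high, and IL18 at 78.1 CPM, which was low. The remaining values were C3 at 26.6 CPM in positive 5 and CAT at 72.4 CPM in negative 2. NFKBIZ at 394 CPM in positive 1 was not marked, because the other positive libraries were themselves spread from 99.1 to 164 CPM.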

How the results depend on the processing

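Under 17 alternatives 0 members passed an adjusted p of 0.05 in each, DESeq2's Wald test included. That test called 0.477% of the rows it could test and gave NFKB2 no p. Members at an unadjusted p under 0.05 numbered 4 in the main analysis (14.4% of all rows), 2 when at least 50 counts were required in every library of either group (which removed TNFAIP3 and TRAF1; 14.3% of all rows), 2 without both positive 1 and negative 2 (10%), and 3 to 5 with 1 library left out (9.7% to 17.2%). Members without overlap between groups numbered 0 beside 9.14% of all rows, but 1 with upper quartile scaling (8.86%), 1 without both positive 1 and negative 2 (16.2%), and 0 to 3 with 1 library left out (11.3% to 17.4%), 3 and 17.4% being without negative 8. NFKB2 turned from 0.76 to -0.39 with limma voom and library weights, to -0.39 without both positive 1 and negative 2, and ranged from -0.48 (without positive 1) to 1.05 with 1 library left out. BIRC3 turned from -0.32 to 0.10 with voom, to 0.083 without both libraries, and ranged from -0.47 to 0.066 (without negative 2). RELB ranged from -0.012 (without negative 7) to 0.35. The cause of these turns was not tested beyond the libraries named. The other 7 members kept their direction under every alternative that tested them. Of these, NFKBIA came close to 0, at 0.01 without both positive 1 and negative 2, 0.07 without positive 1 and 0.08 with voom. Scaling by library totals moved the median of all rows from -0.02 to 0.10, and NFKBIZ and SOD2 were then at 1.30 and 0.76. At the mean counts over all libraries, 22.5 for TRAF1 and 39.4 for TNFAIP3, counting error alone was 21.1% and 15.9%. These lay below the fitted variation between libraries of 35.7% and 34.8%. Counting error is larger than 21.1% at the 6, 11 and 8 counts of TRAF1 in negative 2, 6 and 7. No paired analysis was made, because each library number occurs in 1 group only and the labels state no pairs. Whether positive and negative libraries shared a culture or a run is not stated.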
